A study of Mus musculus with 4 samples.

Results

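Nutrient-sensing genes were followed in tumour cells sorted from mice with a genetic form of small cell lung cancer. The set holds 37 genes, all 37 found by symbol among the 17746 gene symbols of the authors' table, and was chosen by function: mTORC1 (5 genes), the TSC complex with Rheb (4), Ragulator, the Rag GTPases and the FLCN complex (10), GATOR (8), AMPK with its upstream kinase (7) and the MiT/TFE transcription factors (3). The animals carried floxed Rb1 and Trp53 alleles (Rb1fl/fl; Trp53fl/fl) together with a GFP-LC3-RFP-LC3ΔG knock-in, a reporter whose GFP part autophagy degrades while its RFP part stays in the cytosol. Live (DAPI-negative) cells of digested lung tumours that were positive for EpCAM and RFP were sorted by GFP into a positive and a negative fraction, and 2 libraries of each were sequenced, so both groups share the genotype and differ, per the labels, in GFP. The age and sex of the mice, the way Cre was delivered and the number of animals behind a library were not given in the sources used here, and p-values may thus measure only technical spread.

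The sample titles assign high autophagic flux to GFP-positive cells and the design text of the series assigns it to GFP-negative cells. The groups are therefore called by GFP status, differences are GFP-negative minus GFP-positive, and nothing is stated about flux. Where a pair of values stands for a group, replicate 1 comes first. Levels of a gene are CPM (library-size scaled counts) scaled by TMM, which compare libraries, and levels of different genes are compared only as the authors' FPKM, which divide by gene length.

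mTORC1 is the kinase complex that promotes growth and holds autophagy down when amino acids and growth factors are plentiful. Amino acids act through the Rag GTPases, which Ragulator anchors on the lysosome and GATOR regulates, whereas growth factors act through the TSC complex and the small GTPase Rheb. AMPK, switched on by low energy and by the kinase LKB1, opposes mTORC1, and when mTORC1 is inactive TFEB and its relatives enter the nucleus and switch on lysosomal and autophagy genes. Much of this regulation is by phosphorylation and by movement between compartments, which RNA levels do not show.

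TFEB, TFE3 and MITF bind DNA elements built on the E-box core CACGTG, and the promoter windows of these genes were searched for it because some of them, such as Flcn and Rragd, are known targets of the same factors. RefSeq promoter windows (build GRCm38.p6, 250 bases before to 50 bases after a gene start) were matched for 33 of the 37 genes, in 40 windows; Deptor, Lamtor3, Wdr24 and Seh1l were not matched. The core reads the same on both strands. It occurred in 6 of the 40 windows, each of a different gene, and in 7.15% of all 32851 windows. Flcn and Rragd had no match in the windows searched. The longer form TCACGTGA, which contains the core, was found in 0 of the 40 windows and in 0.974% of all windows. Each match is given with 12 bases on each side, 5′ to 3′ on the strand of the gene, with the core in capitals.
Rheb (chr5:24842440-24842469, minus strand, core starting 96 bases before the RefSeq gene start): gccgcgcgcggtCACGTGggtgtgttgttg
Tbc1d7 (chr13:43171537-43171566, minus strand, 53 bases before): ccggttaacatcCACGTGtgggtgggactc
Lamtor1 (chr7:101905757-101905786, plus strand, 68 bases before): ctgccttcctatCACGTGccgcgggtccgc
Lamtor4, first match (chr5:138255350-138255379, plus strand, 120 bases before): gcagaaagttaaCACGTGaacagcttttca
Lamtor4, second match (chr5:138255366-138255395, plus strand, 104 bases before): tgaacagcttttCACGTGtaaaccaaacca
Rragc (chr4:123917309-123917338, plus strand, 112 bases before): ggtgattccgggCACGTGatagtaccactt
Fnip1 (chr11:54438092-54438121, plus strand, 75 bases before): tcagtttgctgcCACGTGatacggctcgtc
The stretch at Rheb lies inside the gene as GENCODE M21 draws it, whose start at 24842624 is farther upstream than that of RefSeq. The 2 matches of Lamtor4 lie 16 bases apart in 1 promoter. These letters describe the windows and do not show that a factor binds there.

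Libraries held 51994432 to 73997175 counts. GFP-positive replicate 1 stood apart: 65.8% of all symbols had 0 counts in it, against 0.727% to 11.5% in the other 3 libraries. Markers of the tumour and of other cells also differed between libraries. The 11 neuroendocrine markers, all in the table, summed to 3462 and 1557 CPM in the GFP-positive pair, against 4566 and 3180 CPM in the GFP-negative pair. Calca alone gave 3073 CPM of the sum in GFP-positive replicate 1, and 8 of the 11 had 0 to 8 counts in GFP-positive replicate 1 (Chga, Chgb and Dll3 at 0). Of the 6 epithelial markers, 4 had 3527 counts or more in GFP-positive replicate 1, while Cdh1 had 4 and Cldn4 had 22. The 14 macrophage markers found (of 15) summed to 117874 and 68359 CPM in the GFP-positive pair, against 1201 and 21909 CPM in the GFP-negative pair, with Itgax at 0 counts in GFP-positive replicate 1. The 4 hepatocyte markers found (of 6) summed to 27262 CPM in GFP-positive replicate 1 and 23.5 to 319 CPM elsewhere. Ttr made up most of the sum elsewhere, at 23.0 to 318 CPM, while Alb, Apoa2 and Cyp2e1 had 0 to 3.09 CPM. The 5 erythroid markers summed to 45369 CPM in GFP-positive replicate 1 and 1572 to 14332 CPM elsewhere. The 5 T and NK cell markers summed to 0 and 120.2 CPM in the GFP-positive pair, against 14.3 and 44.7 CPM in the GFP-negative pair, and the 7 B and plasma cell markers to 1890 and 6589 CPM against 2940 and 20136 CPM. The part of these cells in the values below was not tested. In such bulk samples, fewer cells of a type and less RNA per cell cannot be told apart.

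The 37 genes were present in 3 of the 4 libraries and largely missing from the other. GFP-positive replicate 2 and GFP-negative replicate 1 had counts for 37 of 37 genes, and GFP-negative replicate 2 for 33, with Mlst8, Prkaa2, Prkab2 and Mitf at 0. In GFP-positive replicate 1, 20 genes had 0 counts, 8 had 4 to 7 counts, and 9 had 625 to 17117 counts, with none in between. The 9 were Rptor, Rheb, Tsc2, Lamtor1, Lamtor2, Lamtor3, Lamtor5, Flcn and Stk11. They came from 4 of the 6 groups, and no GATOR or MiT/TFE gene was among them. Their mean FPKM over the other 3 libraries had a median of 14.8 (range 0.262 to 337), against 2.41 (range 0.230 to 81.4) for the other 28 genes, so the 2 ranges overlapped widely. The share of genes at 0 there, 54.1%, was lower than the 65.8% of all symbols. At 0 counts, a limit of 3 counts corresponds to 0.0800 CPM in GFP-positive replicate 1 and 0.0451 CPM in GFP-negative replicate 2, for counting error only.

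**Figure D1:**
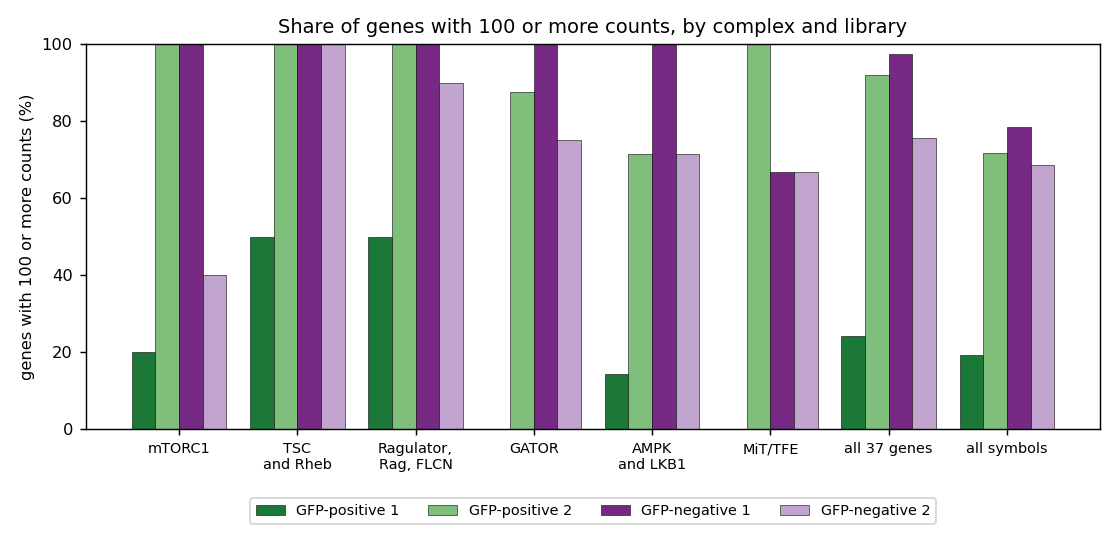
Share of genes with 100 or more counts (y axis, %) in each functional group, over all 37 genes and over all 17746 symbols (x axis), with 1 bar per library. GFP-positive replicate 1 reached 24.3% of the 37 genes and 19.3% of all symbols, with no bar for GATOR and MiT/TFE, where no gene reached 100 counts.

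The test of GFP-negative against GFP-positive libraries called none of the 37 genes. With edgeR (quasi-likelihood, Benjamini-Hochberg adjustment over 16301 genes) there was an adjusted p of 1.0 for each of them, beside a background of 0.0982% of all tested genes called. At an unadjusted p under 0.05 edgeR again counted 0 of 37, against 3.1% of all genes. DESeq2's Wald test called 0 of the 33 genes to which it gave an adjusted p (background 0.479%), and had Rptor alone under an unadjusted 0.05 (background 7.11%). The fitted log2 change was above 0 for 28 genes and below 0 for 9, with a median of 1.05 beside 0.91 for all tested genes. A refit that left out GFP-positive replicate 1 gave a median of 0.19, with 21 genes above 0, beside 0.29 for all genes. An exact permutation test of 2 libraries against 2 cannot go below p = 0.333 (two-sided) and was not used.

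Library choice decided what could be called. Without GFP-positive replicate 2, when GFP-positive replicate 1 alone stands for its group and is assumed to vary like the GFP-negative pair, edgeR called 23 of the 37 genes, 22 of them higher in the GFP-negative libraries and 1, Rptor, lower. The background in that refit was 42.7% of 16804 genes called higher and 2.49% called lower. Leaving out any of the other 3 libraries called 0 of the 37, with a background of 0.00587% of genes called without GFP-positive replicate 1. The CPM of the 2 groups did not overlap for 8 genes with both GFP-negative libraries higher (background 25.2%) and for 3 genes with both lower (background 6.63%), 11 genes in all where the background for either direction is 31.8%. The 8 were Mtor, Rraga, Fnip1, Nprl2, Wdr59, Seh1l, Prkag1 and Prkag2, all at 0 to 4 counts in GFP-positive replicate 1, and the 3 were Lamtor1, Lamtor2 and Flcn. These lists depend on the scaling, since Lamtor1 and Flcn overlapped in the authors' FPKM. Akt1s1, Rheb, Tbc1d7 and Sec13 did not overlap in FPKM, with both GFP-negative libraries higher. The share of all genes without overlap in FPKM was not counted, and the shares in CPM cannot stand in for it. The FPKM list is thus a description of scaling only.

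**Figure D2:**
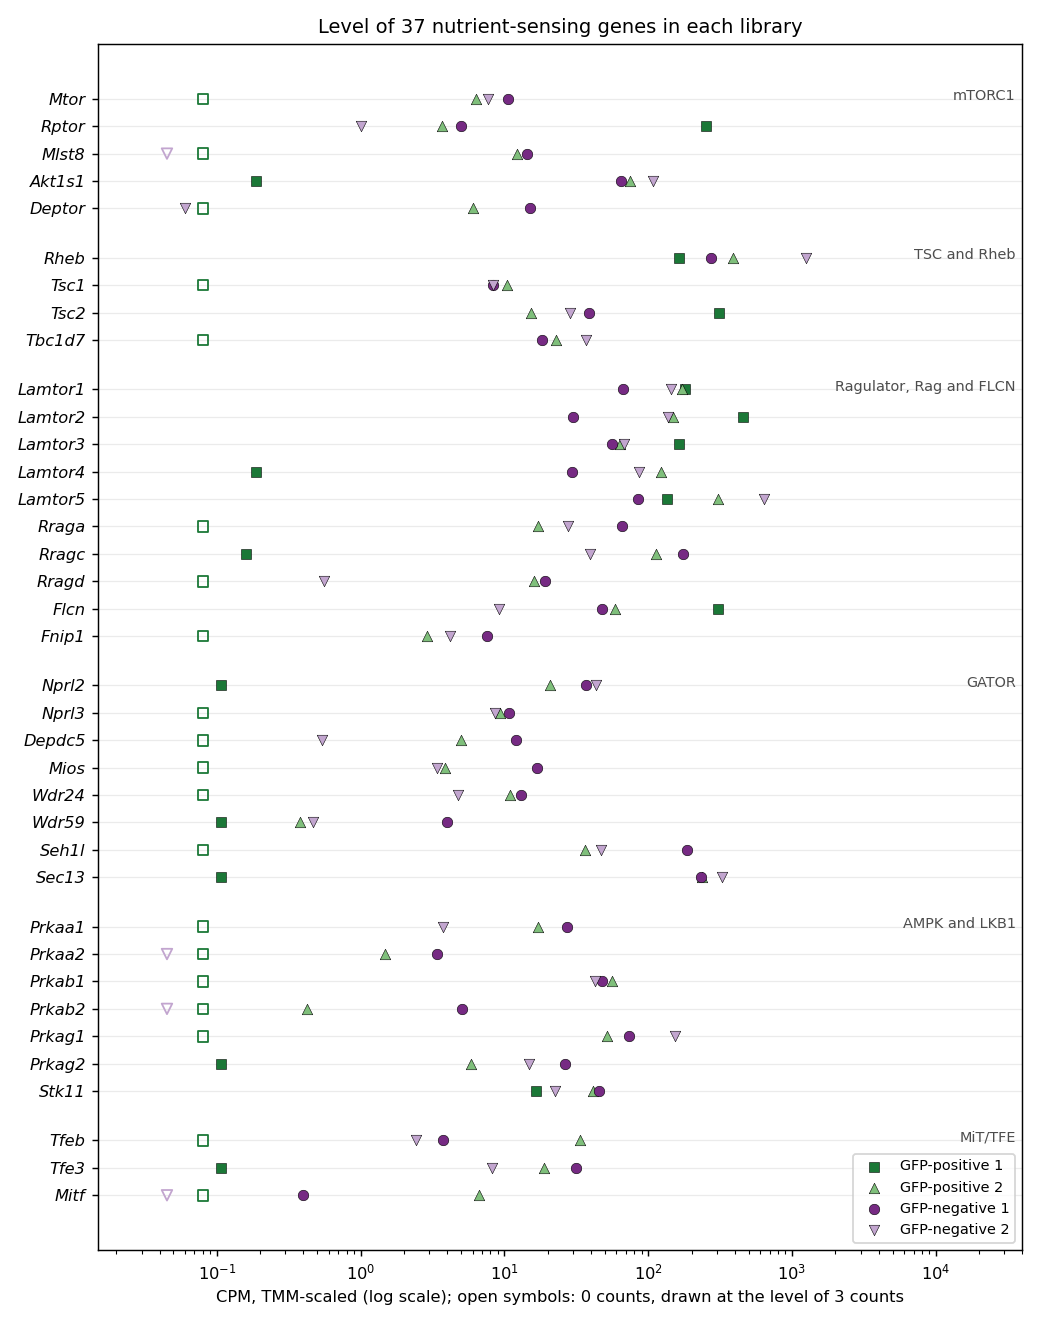
Level of each of the 37 genes (rows, by group) in the 4 libraries, as TMM-scaled CPM on a log axis, with 1 symbol per library and open symbols for 0 counts drawn at the level of 3 counts. GFP-positive replicate 1 (squares) lies far left for 28 genes and at 16.7 CPM or above for 9, and the other 3 libraries lie closer together for most genes.

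Among the genes of mTORC1 itself, and of all 37, the smallest unadjusted p in edgeR (0.150) was that of Rptor, which encodes the scaffold Raptor that brings substrates to the kinase. Rptor, on chromosome 11 (mm10) from 119602905 to 119899576, stood at 252 and 3.70 CPM in the GFP-positive pair, against 5.01 and 1.01 CPM in the GFP-negative pair. GFP-positive replicate 1 was thus the only high library, and the groups overlapped. Its log2 change was -5.41 ± 3.75 SE, and -0.31 without that library. In the same library Mtor, the kinase, and Mlst8, its other core partner, had 0 counts. Mtor stood at 0 and 6.34 CPM against 10.5 and 7.64 CPM, a narrow range over the 3 libraries that had counts. Mlst8 had 0 and 12.3 CPM against 14.4 and 0 CPM, so each group held 1 library at 0 and 1 with counts. Of the exon bases of Mlst8, 22.5% are shared with Bricd5 on the opposite strand, which counts without strand cannot separate.

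Akt1s1 encodes PRAS40, an inhibitory partner of the complex. It had 0.187 and 74.2 CPM in the GFP-positive pair, against 64.7 and 108 CPM in the GFP-negative pair (log2 change 1.21 ± 3.23 SE). Deptor, the other inhibitory partner, stood at 0 and 6.07 CPM against 15 and 0.0601 CPM, with 1697 counts in GFP-negative replicate 1 and 4 in replicate 2. The GFP-negative pair thus differed 249-fold. Per length, Akt1s1 was the highest mTORC1 gene in the 3 libraries other than GFP-positive replicate 1, at 19.6, 28.4 and 29.1 FPKM, while Mtor lay at 0.507, 1.41 and 0.626 FPKM, for GFP-positive replicate 2 and GFP-negative replicates 1 and 2.

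Rheb, the GTPase that directly activates mTORC1, had 6103 counts or more in every library and was highest in GFP-negative replicate 2. It had 163 and 391 CPM in the GFP-positive pair, against 274 and 1260.1 CPM in the GFP-negative pair, a log2 change of 1.47 ± 1.51 SE, and 0.0097 without GFP-negative replicate 2. In CPM the groups overlapped, because GFP-negative replicate 1 lay below GFP-positive replicate 2. In FPKM they did not, at 13.6 and 41.0 against 48.0 and 136. The GFP-negative replicates differed 4.60-fold, with replicate 2 the higher. Rheb is 1 of the genes with the E-box core printed above.

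The TSC complex keeps Rheb inactive. Tsc2, its catalytic subunit, had 313 and 15.3 CPM in the GFP-positive pair, against 38.8 and 28.5 CPM in the GFP-negative pair, so that GFP-positive replicate 1 was the highest library and replicate 2 the lowest. Its log2 change of -2.29 ± 2.77 SE turned to 1.13 without GFP-positive replicate 1. Tsc2 (chromosome 17, mm10, 24595816 to 24632630) shares 693 exon bases, 7.2% of its own, with Pkd1 on the opposite strand, and Pkd1 had 0 counts in GFP-positive replicate 1 where Tsc2 had 11744. Tsc1, the stabilising subunit, had 0 and 10.4 CPM against 8.34 and 8.37 CPM. Tbc1d7, the third subunit, had 0 and 23 CPM against 18.4 and 36.8 CPM. Both lay within a narrow range in the 3 libraries with counts and were at 0 in the library with the most Tsc2.

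Ragulator, the scaffold that tethers the Rag GTPases to the lysosome, held the most abundant of the 37 genes per length. Lamtor5 was first among them in 3 libraries, at 282 FPKM in GFP-positive replicate 2 and 129 and 601 FPKM in the GFP-negative libraries, and Lamtor2 was first in GFP-positive replicate 1 at 242 FPKM. The subunits were not measured in equal amounts: the highest exceeded the lowest, Lamtor3, 22.6-fold in GFP-positive replicate 2 and 7.04-fold and 44.2-fold in the GFP-negative libraries.

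Lamtor1, the lipid-anchored subunit that wraps the others, had 181 and 173 CPM in the GFP-positive pair, against 66.8 and 143 CPM in the GFP-negative pair (log2 change -0.75 ± 2.33 SE). Lamtor2 had 456 and 148 CPM against 30.2 and 137 CPM (log2 change -1.85 ± 2.11 SE). For both, the 2 GFP-negative libraries lay below the 2 GFP-positive ones in CPM. GFP-negative replicate 2 came close to GFP-positive replicate 2, and each change was smaller than its SE. In FPKM the groups of Lamtor1 overlapped, at 36.4 and 43.6 against 28.1 and 37.0. Of the exon bases of Lamtor1, 18.7% are shared with Lrrc51 on the opposite strand. Lrrc51 had 0 and 1175 counts in the GFP-positive pair, against 246 and 1587 in the GFP-negative pair. Lamtor3, the partner of Lamtor2 in 1 of the roadblock dimers, had 163 and 63.8 CPM against 56.3 and 68 CPM (-0.87 ± 2.78 SE). Lamtor4 had 0.187 and 122 CPM against 29.3 and 85.7 CPM (-0.08 ± 3.23 SE), and was the only subunit nearly missing from GFP-positive replicate 1, with 7 counts. Lamtor5, its dimer partner, had 136 and 307 CPM against 84.4 and 639 CPM (0.71 ± 1.81 SE). The GFP-negative libraries lay on both sides of the GFP-positive ones for Lamtor5, and differed from each other 7.57-fold.

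Transcripts of 3 pseudogenes resemble Lamtor1 and Lamtor3 over 375 to 486 bases at 96.5% to 99.5% identity. These pseudogenes had 22 to 90 counts per library, against 4067 counts or more for either gene, so few reads were assigned to them. Another pseudogene, AC174383.2, resembles Wdr59 of the GATOR group over 429 bases at 95.3% identity.

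The Rag GTPases work as pairs of an A or B form with a C or D form. Rraga had 0 and 17.1 CPM in the GFP-positive pair, against 65.8 and 27.8 CPM in the GFP-negative pair, both of the latter above both of the former. Rragc had 0.160 and 113 CPM against 174 and 39.4 CPM (log2 change 0.92 ± 2.87 SE), with the groups overlapping. Rragd, its paralogue, had 0 and 15.9 CPM against 19 and 0.556 CPM, and the GFP-negative pair differed 34.3-fold. Per length Rragc exceeded Rragd 10.9-fold in GFP-positive replicate 2 and 14.1-fold and 112-fold in the GFP-negative libraries. In GFP-positive replicate 1 these 2 genes had 6 and 0 counts.

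Rragc lies on chromosome 4 (mm10) from 123917446 to 123936997, 922 kb from Mycl, a MYC-family oncogene known in small cell lung cancer, which stood at 1477 CPM in the first GFP-negative replicate and 0.766 CPM in the other. Rragc had 174 and 39.4 CPM in these 2 libraries, a log2 difference of 2.13 (with 0.5 CPM added to each level). The 3 other genes within 200 kb of Rragc that reached 5 CPM in a library, Akirin1, Mycbp and Gm12905, were also higher in GFP-negative replicate 1, by log2 differences of 2.44, 0.91 and 3.79. Of the 7 such genes between Mycl and Rragc, which include these 3, 6 were higher in that library. So were 7137 of the 12625 symbols that reached 5 CPM. Trit1 and Ppie, of the 7 the nearest to Mycl, were higher by log2 differences of 9.46 and 5.36. Farther from Mycl, Macf1 was higher by 0.68 and Ndufs5 was lower by a log2 difference of -1.36. Gm12905 had only 0.180 CPM in GFP-negative replicate 2, less than the 0.5 CPM added. The median over the 7 was 2.44, beside 0.38 for the 12625 symbols that reached 5 CPM and 0.78 for the 35 nutrient-sensing genes that did. Whether a change of the chromosome segment contributes to the level of Rragc was not tested. In GFP-positive replicate 1 Rragc had 0.160 CPM, Mycbp 0.160 CPM and Gm12905 0 CPM, while Akirin1 had 682 CPM.

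**Figure D3:**
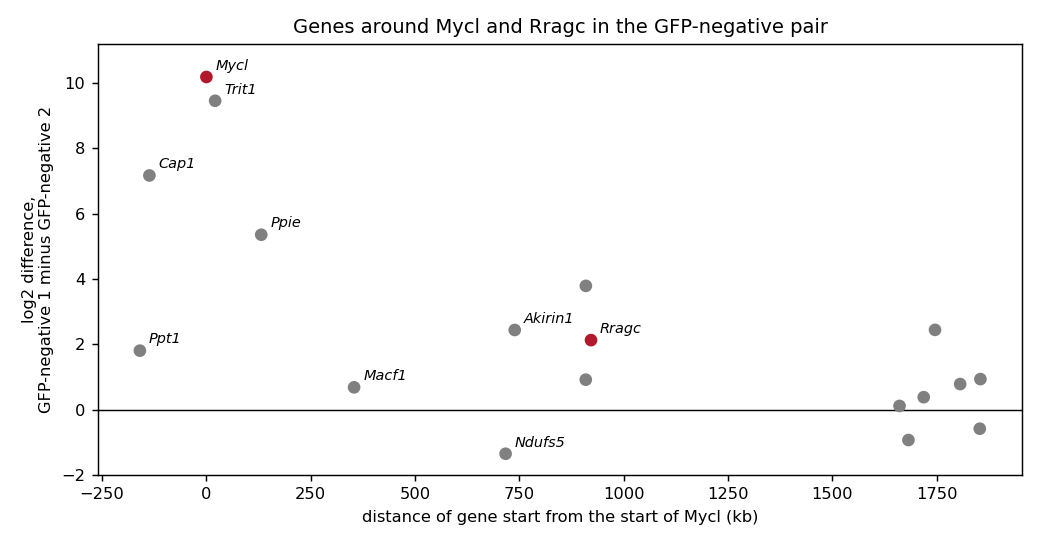
Log2 difference between GFP-negative replicates 1 and 2 (y axis, 0.5 CPM added) for genes that reached 5 CPM in a library, by the distance of their start from the start of Mycl (x axis, kb), with Mycl and Rragc in red. Differences exceed 5 for Mycl and its 3 neighbours Cap1, Trit1 and Ppie, and Rragc, at 922 kb, lies at 2.13 among neighbours from -1.36 to 3.79.

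FLCN with its partner FNIP1 activates the Rag C and D forms and through them controls TFE3 and TFEB. Flcn, on chromosome 11 (mm10) from 59791408 to 59810016, had 304 and 59.1 CPM in the GFP-positive pair, against 47.9 and 9.15 CPM in the GFP-negative pair, both of the latter below both of the former. In FPKM the groups of Flcn overlapped, because GFP-negative replicate 1 lay above GFP-positive replicate 2. The log2 change of Flcn was -2.67 ± 2.75 SE, smaller than its SE, and -1.06 without GFP-positive replicate 1. Fnip1 had 0 and 2.92 CPM against 7.56 and 4.19 CPM with the groups apart in the other direction. In GFP-positive replicate 1 Flcn was among the highest of the 37 genes, at 45.5 FPKM, and Fnip1 had 0 counts.

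GATOR, like MiT/TFE, had no gene with 100 counts or more in GFP-positive replicate 1, where 5 of its 8 genes had 0 counts and the other 3 had 4 each. All 8 fitted changes were above 0 with that library in the fit. So were 7 of 7 in the group of AMPK and LKB1 and 11102 of all 16301 tested genes. Without that library 7 of the 8 were above 0, where the median of all genes was 0.29. The share of all genes above 0 in that refit was not counted. GATOR1 (Nprl2, Nprl3 and Depdc5) switches off the A and B forms of the Rag GTPases, and GATOR2 (Mios, Wdr24, Wdr59, Seh1l and Sec13) restrains GATOR1.

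Nprl2, the subunit with the GTPase-activating residue, had 0.107 and 20.8 CPM in the GFP-positive pair, against 36.7 and 43.4 CPM in the GFP-negative pair (log2 change 1.94 ± 4.24 SE), with no overlap between groups. Nprl3 had 0 and 9.33 CPM against 10.8 and 8.61 CPM and shares 17.7% of its exon bases with Mpg on the opposite strand. Depdc5, the large subunit that contacts the Rag GTPases, had 0 and 4.99 CPM against 12 and 0.541 CPM, a gap of 22.2-fold within the GFP-negative pair. Nprl2 and Nprl3 differed far less between those libraries.

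In GATOR2, Sec13 and Seh1l, which also serve the nuclear pore and, for Sec13, the COPII coat, were the highest per length in the 3 libraries with counts, Sec13 at 60.0, 99.1 and 85.0 FPKM and Seh1l at 7.11, 61.2 and 9.45 FPKM. Sec13 had 0.107 and 236 CPM in the GFP-positive pair, against 233 and 326 CPM in the GFP-negative pair (log2 change 1.24 ± 2.06 SE), and Seh1l had 0 and 36.2 CPM against 187 and 46.8 CPM (2.69 ± 3.27 SE). The 3 other subunits lay at 0.0341 to 5.14 FPKM in the same libraries. Mios had 0 and 3.87 CPM against 16.8 and 3.42 CPM, and Wdr24 had 0 and 11 CPM against 13.1 and 4.73 CPM. Wdr59 had 0.107 and 0.377 CPM against 4.02 and 0.466 CPM (3.20 ± 4.04 SE), with 24 to 456 counts in the 3 libraries other than GFP-positive replicate 1. For Mios, Wdr24 and Wdr59, GFP-negative replicate 1 was the highest library.

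AMPK is a trimer of a catalytic alpha, a scaffolding beta and a nucleotide-binding gamma subunit, each encoded by more than 1 gene. The form numbered 1 was the higher per length in each of the 3 libraries with counts. Prkaa1 exceeded Prkaa2 20.1-fold in GFP-positive replicate 2 and 13.9-fold in GFP-negative replicate 1, while the values in the other GFP-negative library were 0.661 and 0 FPKM. Prkab1 exceeded Prkab2 220-fold and 15.8-fold in the same 2 libraries, and stood at 11.5 FPKM against 0 in GFP-negative replicate 2. Prkag1 exceeded Prkag2 26.3-fold in GFP-positive replicate 2 and 8.35-fold and 30.4-fold in the GFP-negative libraries. These ratios compare genes within a library and were not tested between groups.

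**Figure D4:**
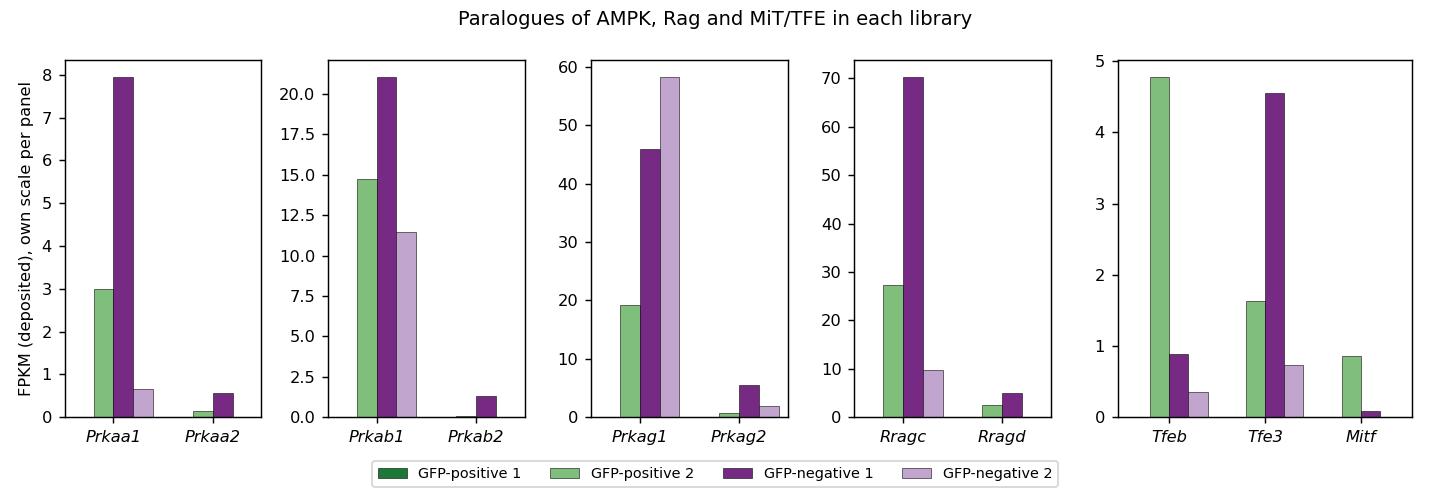
Deposited FPKM (y axis, its own scale in each panel) of AMPK, Rag and MiT/TFE paralogues, with 1 bar per library and no bar where a gene had 0 counts or, in GFP-positive replicate 1, at most 6. Prkaa1, Prkab1, Prkag1 and Rragc are the higher of each pair in the 3 other libraries, while Tfeb is above Tfe3 in GFP-positive replicate 2 alone.

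In CPM, Prkaa1 had 0 and 17.2 in the GFP-positive pair, against 27.4 and 3.72 in the GFP-negative pair, and Prkaa2 had 0 and 1.47 against 3.38 and 0. Prkab1 had 0 and 55.9 CPM against 47.7 and 42.5 CPM, close together in the 3 libraries with counts, and Prkab2 had 0 and 0.424 CPM against 5.04 and 0 CPM (log2 change 3.55 ± 4.18 SE). Prkag1 had 0 and 51.4 CPM against 73.9 and 152 CPM (2.14 ± 3.17 SE), and Prkag2 had 0.107 and 5.85 CPM against 26.4 and 14.9 CPM (2.79 ± 4.69 SE). For the gamma genes both GFP-negative libraries exceeded both GFP-positive ones, as they did for 25.2% of all tested genes. GFP-positive replicate 2 lay below both GFP-negative libraries for 28.9% of all tested genes. Of the exon bases of Prkag1, 43.7% are shared with the antisense gene B130046B21Rik, which had 25 to 73 counts in these 3 libraries. Prkag2 shares 12.3% of its exon bases with the antisense gene Prkag2os2. Stk11, which encodes LKB1, a tumour suppressor of the lung and the main kinase upstream of AMPK, had 16.7 and 41.3 CPM against 45.2 and 22.6 CPM (0.23 ± 3.93 SE). It was the only gene of the group with more than 4 counts in GFP-positive replicate 1.

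Of the MiT/TFE factors, Tfeb and Mitf were highest in GFP-positive replicate 2, while Tfe3 was not. Tfeb, on chromosome 17 (mm10) from 47737030 to 47792419, had 0 and 2131 counts in the GFP-positive and 426 and 161 counts in the GFP-negative libraries. At 0 and 33.4 against 3.75 and 2.42 CPM its groups overlapped, because GFP-positive replicate 1 was at 0, and the log2 change was -2.44 ± 4.66 SE, and -3.44 without GFP-positive replicate 1. Mitf, on chromosome 6 (mm10) from 97807052 to 98021349, had 0 and 6.62 CPM against 0.397 and 0 CPM (-4.05 ± 4.48 SE, and -5.05 without GFP-positive replicate 1). Tfe3 had 0.107 and 18.8 CPM against 31.2 and 8.17 CPM (1.06 ± 4.39 SE), with GFP-positive replicate 2 between the GFP-negative libraries. With or without GFP-positive replicate 1, edgeR gave an adjusted p of 1.0 for all 3.

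Per length, Tfeb was the highest of the 3 factors in GFP-positive replicate 2, at 4.77 FPKM against 1.64 for Tfe3 and 0.863 for Mitf. In both GFP-negative libraries Tfe3 was the highest, at 4.55 and 0.733 FPKM, against 0.887 and 0.348 for Tfeb. Macrophage markers differed in the same direction: 14 of 14 were higher in GFP-positive replicate 2 than in both GFP-negative libraries, where the background is 27.9% of all tested genes. They summed to 68359 CPM in GFP-positive replicate 2 against 1201 and 21909 CPM without GFP. In GFP-positive replicate 1 they summed to 117874 CPM, and Tfeb and Mitf had 0 counts, as did 65.8% of all symbols. The T and NK cell markers (5 of 5) and the erythroid markers (5 of 5) were also higher in GFP-positive replicate 2 than in both GFP-negative libraries. All T and NK cell markers had 0 counts in GFP-positive replicate 1. The part of these cells in the levels of Tfeb and Mitf was not tested. Of the 6 genes with the E-box core printed above, Rheb, Tbc1d7, Lamtor4 and Rragc had overlapping groups in CPM. By the same measure Lamtor1 was lower and Fnip1 higher in both GFP-negative libraries. In FPKM, for which no share of all genes was counted, Lamtor1 overlapped, while Rheb and Tbc1d7 did not.

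**Figure D5:**
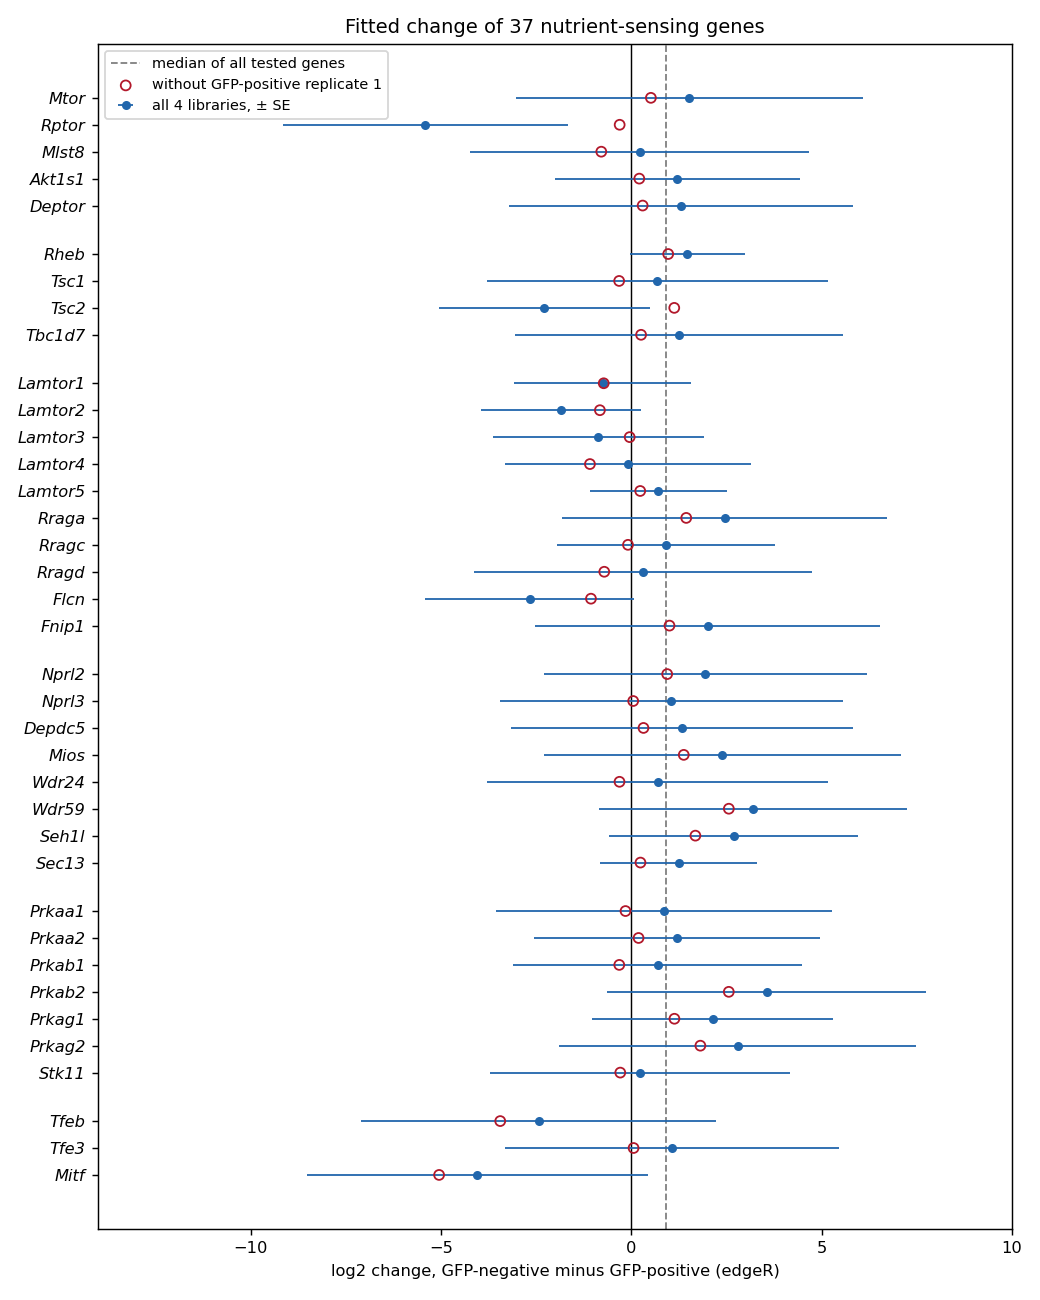
Fitted log2 change (x axis, GFP-negative minus GFP-positive) of the 37 genes (rows) in edgeR with all 4 libraries (filled points, bars ± SE) and without GFP-positive replicate 1 (open points); the dashed line is the median of all tested genes, 0.91. The bars of all genes but Rptor cross 0, none of the genes passed the test, and the open points lie nearer 0 for most genes, with Tfeb and Mitf at -3.44 and -5.05.

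The GFP-negative replicates differed from each other for many of these genes. Replicate 1 was the higher for 25 of the 37 (background 55.4% of tested genes), by over 4-fold for 13 (background 26.6%), and replicate 2 was the higher by over 4-fold for 3 (background 15.3%). Those 3 were Rheb, Lamtor2 and Lamtor5. Across the 33 genes with counts in both libraries, the log2 ratio of replicate 2 to replicate 1 went with shorter exon length (Spearman's rho -0.52), as it did across 14379 tested genes (rho -0.43). The points share 2 libraries and are a description. GFP-positive replicate 2 lay above both GFP-negative libraries for 8 of the 37 genes (background 27.9%) and below both for 9 (background 28.9%), shares near the background.

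Genes around this core were read from 6 further lists, and 0 of 61 genes passed the edgeR test in either direction (background 0.0982%). All 61 were tested, with 0 at an unadjusted p under 0.05. The mTORC2 list had 4 genes with a median log2 change of 0.21, the list of amino acid sensors and KICSTOR 9 of 14 with 0.41, and that of growth factor input 14 of 15 with 0.99. mTORC1 substrates had 12 of 13 genes with 0.70, AMPK inputs and substrates 10 of 11 with 1.51, and genes that handle or respond to TFEB and TFE3 12 of 13 with 0.51, beside 0.91 for all tested genes. Symbols not found in the table were not analysed here.

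Some of these genes followed the patterns seen in the core. Gpnmb, a glycoprotein of macrophages and melanocytes and a known MITF and TFE3 target, had 0 and 238 CPM in the GFP-positive pair, against 5.92 and 7.94 CPM in the GFP-negative pair (log2 change -4.10 ± 3.58 SE), with GFP-positive replicate 2 the only high library, as for Tfeb and Mitf. Pik3ca, a catalytic subunit of PI3-kinase, had 178 and 2.21 CPM against 1.03 and 0.120 CPM (-7.29 ± 4.68 SE, and -1.94 without GFP-positive replicate 1), high in GFP-positive replicate 1 alone, like Rptor. Ppp3cb, a catalytic subunit of calcineurin, the phosphatase that acts on TFEB, had 278 and 1.24 CPM against 19.1 and 14.6 CPM (-3.05 ± 3.13 SE, and 3.76 without GFP-positive replicate 1), so its direction rests on that library.

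Among mTORC1 substrates, Maf1, a repressor of RNA polymerase III, had 562 and 120.2 CPM in the GFP-positive pair, against 67.3 and 92 CPM in the GFP-negative pair (-2.10 ± 2.07 SE, and -0.60 without GFP-positive replicate 1), with no overlap between groups. Rb1cc1, the FIP200 subunit of the autophagy-initiating ULK complex, had 0 and 4.96 CPM against 27.3 and 21.5 CPM (3.30 ± 4.77 SE). Of the LKB1 partners, Stradb had 0 and 1.41 CPM against 34.7 and 5.0 CPM (4.81 ± 5.18 SE) and Cab39 409 and 40.5 CPM against 129 and 15.4 CPM (-1.64 ± 2.33 SE, and 0.83 without GFP-positive replicate 1). Insr, the insulin receptor, had 0 and 0.502 CPM against 5.74 and 9.27 CPM (4.89 ± 5.16 SE). Each had an edgeR adjusted p of 1.0, and all but that of Maf1 were smaller than their SE.

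Rictor, the defining scaffold of mTORC2, had 0 and 12.9 CPM in the GFP-positive pair, against 25.4 and 27.1 CPM in the GFP-negative pair (2.03 ± 4.47 SE). Mapkap1, another mTORC2 subunit, had 0.107 and 33.7 CPM against 25.9 and 7.64 CPM (-0.01 ± 4.29 SE). In KICSTOR, the complex that recruits GATOR1 to the lysosome, Itfg2 had 0 and 14.6 CPM against 41.9 and 18.3 CPM (2.04 ± 4.42 SE). Rictor and Itfg2 were thus higher in both GFP-negative libraries than in GFP-positive replicate 2, and Mapkap1 was lower. Most genes of these 2 lists went as Mapkap1 did. GFP-positive replicate 2 lay above both GFP-negative libraries for 3 of 4 mTORC2 genes (background 27.9%) and below both for 1 (background 28.9%). For the 9 genes of amino acid sensors and KICSTOR it lay above both for 6 and below both for 2.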

How the data were processed

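The table analysed holds, per the file headers, raw read counts and FPKM for each of the 4 libraries, as deposited by the authors. The submitters' processing notes name cutadapt 1.9, HISAT2 2.2.1, StringTie 2.1.6, DESeq2, edgeR and the mm10 build. Strand handling and the treatment of reads with more than 1 match were not given in the sources used here. Counts were tested with edgeR 4.0.16 in R 4.3.3 (filterByExpr with a minimum of 10, TMM scaling, quasi-likelihood test, threshold 0.05 after Benjamini-Hochberg adjustment over 16301 genes, common biological coefficient of variation 1.92). The test was also run on simulated counts with far less spread between replicates than these data and no library largely at 0. That run does not show how the test behaves here. Alternatives were DESeq2 1.42.0, limma 3.58.1 on log2(FPKM + 1) and log2(FPKM + 0.1), other scalings, no filter, genes with counts in all 4 libraries, a replicate block and each library left out. Members and lists were chosen with earlier results of these data known. Every member is named; log2 changes are printed for 22, those with counts in all 4 libraries and the 2 with the smallest p in each group. In each further list, genes that averaged at least 5 CPM in a group were ranked by p and the first 2 are named, except 1 that is not reported here. Marker genes, Mycl and the neighbours of Rragc were named after their values were seen. Positions are from GENCODE M21 and promoters from RefSeq GRCm38.p6. Total counts limit precision only at low counts; the spread between replicates is the larger error.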

Additional observations from a re-analysis of the deposited data

How the results depend on the processing

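No nutrient-sensing gene passed the test under any alternative other than leaving out GFP-positive replicate 2 (0 to 23 called over the refits that leave out 1 library). Over all genes 16 were called, and 63 by DESeq2's Wald test, 0 by limma on log2(FPKM + 1) and on log2(FPKM + 0.1), 0 with upper quartile scaling and 5 among genes with counts in all 4 libraries; leaving out 1 library gave 1 (without GFP-positive replicate 1) to 7601 (without GFP-positive replicate 2). The median log2 change of the 37 genes, 1.05, lay between -0.21 and 10.52 in those refits. The median of all genes moved with the scaling, from 0.91 with TMM to 1.12 with DESeq2 size factors, 1.33 with library totals and 0.43 with upper quartiles. Lamtor4, at -0.08, turned to 0.051 with DESeq2's test and 0.051 with its size factors, 0.14 with library totals, 2.19 and 3.43 with limma at the larger and smaller pseudocount. Upper quartile scaling turned Lamtor5 to -4.45, Rheb to -3.65, Stk11 to -4.99 and Wdr59 to -1.53. Leaving out 1 library also turned the sign of some log2 changes, with ranges of -1.09 to 8.25 for Lamtor4, -1.36 to 1.53 for Lamtor5, -10.53 to 6.87 for Mitf, -6.59 to 10.52 for Prkab2, -0.52 to 9.36 for Rragc, -0.36 to 1.02 for Stk11, -0.21 to 7.51 for Tfe3, -3.44 to 10.81 for Tfeb and -3.22 to 1.13 for Tsc2. Rheb kept its sign, at 0.0097 to 2.24. The cause was not tested. A replicate block called 21 genes and 0 of the 37, with a median of 3.43 for the 37 and 3.92 for all genes, and turned Lamtor4 to 3.35 and Tfeb to 2.61. The labels name no animal or batch shared by libraries with the same number. Their replicate 1 minus replicate 2 differences had a correlation of 0.0077 between groups across 16301 genes. This cannot show whether they share one, because 64.4% of these genes had 0 counts in GFP-positive replicate 1. Depth allows 3 counts at 0.0264 to 0.0800 CPM.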
